A study of Arabidopsis thaliana with 4 samples.

Results

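The genes described here encode proteins of the small (40S) subunit of the cytosolic ribosome of Arabidopsis thaliana. They were chosen by locus: a probe set of the array counted as a member when it named 1 gene and that gene was among 57 loci of the protein families RPSa to RPS19. Of the 57 loci, 32 had such a probe set, 1 each, out of 13333 genes named alone on the array. Another 8 loci occurred only in 4 probe sets that name several genes, so no signal could be given to any of them, and 17 had no listed probe set. Of the 32 genes, 30 reached the minimum set for testing, a signal of 100 averaged over the 4 arrays, and 2 were dimmer.

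Transcripts were measured with single-colour Affymetrix arrays in whole, untreated seedlings, 2 weeks old, kept on sucrose-supplemented (3%) agar at 22 °C in days of 16 h light and 8 h dark. There were 4 arrays: 2 of wild type and 2 of Col-0 plants titled as overexpressing At1g54160 (NFYA5), a subunit of a factor that binds CCAAT sequences in promoters. The design text of the series gives Col-0 as the wild type and names the second group an nfya5 mutant instead, and the titles were followed, so that its arrays are named overexpressor arrays here. The promoter of the transgene and the number of lines are not given in the sources used here, and the label could not be checked, since At1g54160 has no probe set in the annotation. Values are MAS5 signals in arbitrary units, and each array was scaled to the same target signal of 500, so that every difference is relative to the rest of the array. The median signal of an array lay between 181.4 and 194.1. Precision is limited by having 2 arrays for each group. Whether replicates are separate cultures is not in the labels, and each p-value therefore covers the spread among these samples alone, which may be technical.

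A cytosolic ribosome holds 1 copy of most of its proteins, and the 40S subunit binds the messenger RNA, is loaded with the initiator transfer RNA and checks codon against anticodon. In Arabidopsis each 40S protein is encoded by a small family of paralogous genes, several of which are usually transcribed at the same time. Ribosomal protein genes are known for strong and coordinated transcription in growing tissue, and mutants of single paralogues often show pointed or narrow leaves. Plastids and mitochondria have ribosomes of their own, whose proteins are not among these genes.

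The gene table used gives all 32 genes no symbol but their locus number, while 14 of the 17 loci without a listed probe set carry a ribosomal protein name there. Their protein families are therefore given from general knowledge of the Arabidopsis ribosome, as are the roles of the proteins, which are known mostly from structures and mutants in yeast and mammals. Of the 21 families, 16 had a tested gene, 10 of them 2 or more and 6 of them 1. RPSa, RPS6 and RPS18 were among the families that had no gene with a probe set of its own. In the RPS15a family the dim AT2G39590 was the listed gene, at 6.8 and 18.5 on the wild type arrays and 1.1 and 13.6 on the overexpressor arrays. The other dim gene, AT5G09500 of the RPS15 family, had 10.1 and 28.8 in wild type and 36.9 and 35.4 on the overexpressor arrays. Its direct neighbour on the chromosome and paralogue, AT5G09510, was tested. The brighter of the genes below the minimum was AT5G09500, with a mean of 27.8. None of the 32 probe sets has a name ending that flags shared probes, which does not measure cross-hybridisation between paralogues.

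As a group the 40S protein genes had slightly higher signals on the overexpressor arrays, by a little over 1.1-fold at the median. The log2 fold change, taken on log2(signal + 50) and called the log2 change from here on, was above 0 in 27 of 30 tested genes (53.2% of all 13961 tested probe sets were above 0), with a median of 0.15, or 1.11-fold, against 0.016 over all tested probe sets. In 22 genes both overexpressor arrays lay above both wild type arrays, a separation found in 26.1% of all tested probe sets. In 1 gene both lay below, as in 22.0% of all. The members were read on the same 4 arrays and can vary together, so these counts are not of independent observations. The difference between the groups was larger than the difference between replicates in either group for 19 of the 30 genes, against 34.7% of all tested probe sets. No single gene passed: 0 of 30 had an adjusted p under 0.05 in limma's moderated test, where 1.29% of all tested probe sets did (0.530% higher and 0.759% lower), and the smallest adjusted p was 0.15. An unadjusted p under 0.05 was reached by 4 genes, all higher, against 16.5% of all tested probe sets (8.44% higher).

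The shift was small, and the log2 changes of the 30 genes ran from -0.13 to 0.36. The quartiles of the genes were log2 changes of 0.090 and 0.17, against -0.12 and 0.14 for all tested probe sets, and 16 of the 30 genes lay between 0.1 and 0.2. The standard error of a single gene was between 0.085 and 0.17, with a median of 0.092, against a median log2 change of 0.15. Summed over the 32 genes, the signal was 139769 and 137562 on the wild type arrays and 149064 and 149456 on the overexpressor arrays, a ratio of the means of 1.08. Both overexpressor sums lay above both wild type sums. In bulk seedlings, more RNA per cell and more cells of a type cannot be told apart.

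**Figure D1:**
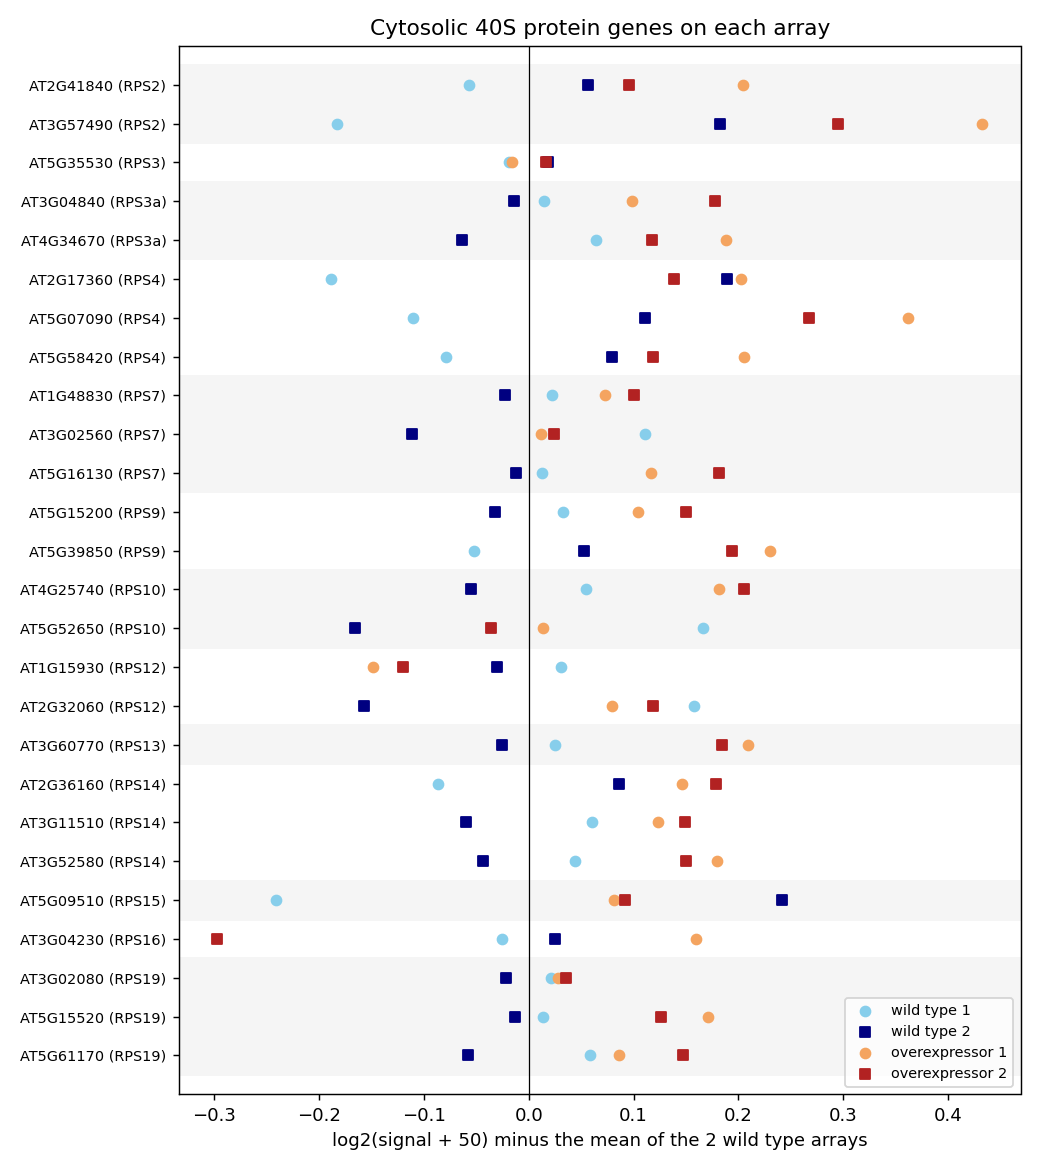
Each row is 1 of 26 tested 40S protein genes with its protein family, and the points give log2(signal + 50) on each of the 4 arrays minus the mean of the 2 wild type arrays. Most overexpressor points lie to the right of both wild type points; AT1G15930 (RPS12) is the gene with both overexpressor points to the left, and light bands alternate between families.

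Array by array, the same order appeared in each of the 4 pairs made of 1 array per group. The median log2 difference over the 30 genes was 0.12 and 0.15 for overexpressor replicate 1 against wild type replicates 1 and 2, and 0.14 and 0.14 for overexpressor replicate 2. These pairings share arrays and are not independent. Between replicates the median difference was -0.036 in wild type (replicate 2 minus replicate 1) and 0.018 on the overexpressor arrays, both smaller than any of the 4 differences across groups. The lowest of the 4 signals was on wild type replicate 2 in 17 genes and on wild type replicate 1 in 11. The highest signal was on overexpressor replicate 2 in 13 genes and on overexpressor replicate 1 in 11. Over all tested probe sets each array was lowest in 22.0% to 30.4% and highest in 23.9% to 26.6%. In 24 of the 30 genes the wild type arrays differed from each other by more than the overexpressor arrays did. Taken without sign, the median replicate difference was 0.11 in wild type and 0.046 on the overexpressor arrays. Over all tested probe sets it was 0.13 and 0.12.

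**Figure D2:**
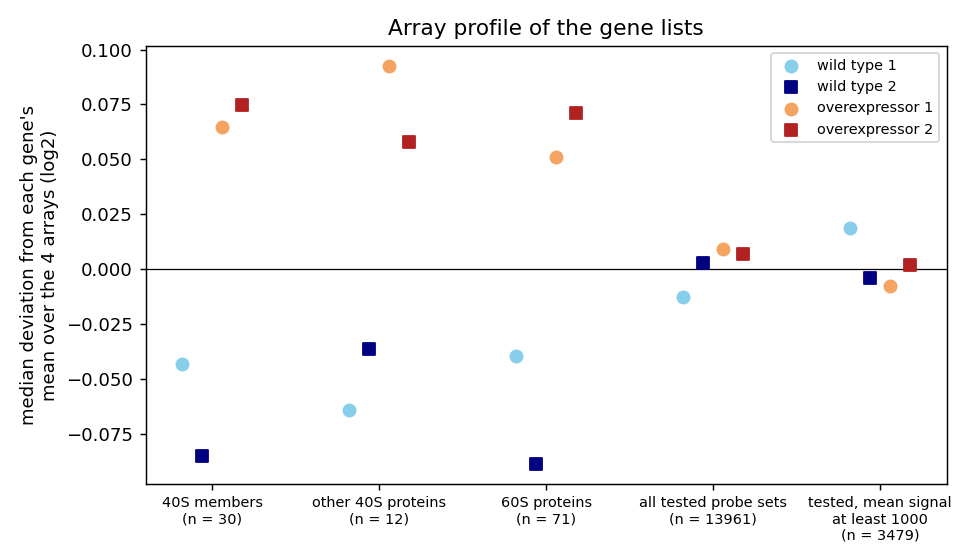
Each point is the median, over the genes of a list, of the log2(signal + 50) on 1 array minus the gene's mean over the 4 arrays. In the 40S members, the other 40S proteins and the 60S proteins both overexpressor arrays lie above 0 and both wild type arrays below, from -0.085 to 0.075 in the 40S members, while all tested probe sets stay between -0.013 and 0.0091.

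The proteins around the channel through which messenger RNA enters the subunit are RPS2, RPS3 and RPS9. RPS2 had the gene with the largest log2 change of all members. AT3G57490 had signals of 551.1 and 724.6 on the wild type arrays and 871.1 and 787.4 on the overexpressor arrays, a log2 change of 0.36 ± 0.13 (SE, limma, adjusted p = 0.20). The groups did not overlap, and the wild type arrays lay further apart than the nearest arrays of different groups. Without wild type replicate 2 the log2 change was 0.55 and passed (adjusted p = 0.045), with the lone wild type array assumed to vary like the overexpressor pair, and it was 0.18 (adjusted p = 0.57) when wild type replicate 1 was the array left out. The brighter RPS2 gene AT2G41840 had 8207.0 and 8886.0 on the wild type arrays and 9847.5 and 9126.5 on the overexpressor arrays (log2 change of 0.15 ± 0.09), again without overlap. RPS3, which helps to unwind the incoming message, was measured only through AT5G35530, since its other loci occur only in probe sets that name several genes. Its signals of 7113.7 and 7302.4 on the wild type arrays and 7128.9 and 7292.7 on the overexpressor arrays overlapped fully, with a log2 change of 0.00058 ± 0.085. RPS9 takes part in the accuracy of decoding. Its gene AT5G39850 had 452.1 and 490.0 in wild type against 560.8 and 545.6 on the overexpressor arrays (log2 change of 0.21 ± 0.11, adjusted p = 0.38). AT5G15200, the other RPS9 gene, had 11666.8 and 11148.6 against 12263.9 and 12662.5 (log2 change of 0.13 ± 0.09). Neither gene of the family had overlapping groups, with the overexpressor arrays higher as in 26.1% of all tested probe sets.

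On the platform side of the subunit, where the message leaves, sit RPS3a and RPS14, and their 5 tested genes had similar values. AT4G34670 (RPS3a) had signals of 7837.0 and 7169.4 on the wild type arrays and 8548.2 and 8136.8 on the overexpressor arrays. AT3G04840, its paralogue, had 5888.5 and 5772.6 against 6247.4 and 6599.9. The log2 changes of the RPS3a pair were 0.15 ± 0.09 and 0.14 ± 0.09. RPS14 is a protein whose late assembly is a known checkpoint. Its gene AT3G52580 had 3702.5 and 3479.8 on the wild type arrays and 4071.2 and 3989.0 on the overexpressor arrays. AT2G36160 had 5206.9 and 5876.8 against 6127.6 and 6269.5, and AT3G11510 had 6827.8 and 6276.9 against 7134.4 and 7263.9. The 3 RPS14 genes spanned log2 changes of 0.14 to 0.16, each with a standard error of 0.09. In none of these 5 genes did the groups overlap, with the overexpressor arrays higher as in 26.1% of all tested probe sets. The values were less alike with 1 wild type array left out. Without wild type replicate 1 the log2 change of AT2G36160 was 0.076 and that of AT3G11510 was 0.20, and without wild type replicate 2 they were 0.25 and 0.076. That of AT4G34670 was 0.22 and 0.089 in the same order.

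RPS4, RPS7 and RPS13 lie in the body of the subunit, and several of them bind ribosomal RNA early in assembly. Among the 3 RPS4 genes, AT5G07090 had the smallest p of all members, with signals of 2996.0 and 3501.6 on the wild type arrays and 4177.3 and 3909.2 on the overexpressor arrays (log2 change of 0.31 ± 0.10, limma, adjusted p = 0.15). Its lowest overexpressor signal was 1.12-fold above its highest wild type signal. That log2 change was 0.43 without wild type replicate 2 and 0.20 without wild type replicate 1. AT5G58420 had 3113.1 and 3479.3 against 3803.3 and 3578.6 (log2 change of 0.16 ± 0.09), with 0.083 without wild type replicate 1 and 0.24 without wild type replicate 2. AT2G17360 had 2690.9 and 3510.7 in wild type against 3544.5 and 3389.2 (log2 change of 0.17 ± 0.12), so that its groups overlapped. All 3 RPS4 genes were lowest on wild type replicate 1, and without that array the value of AT2G17360 was -0.018.

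RPS13, which sits where the subunits meet, had 1 tested gene, which was among the 4 members with an unadjusted p under 0.05, as were AT3G57490 and AT5G07090. AT3G60770 had signals of 5703.2 and 5505.6 on the wild type arrays and 6483.9 and 6374.7 on the overexpressor arrays, a log2 change of 0.20 ± 0.09 (limma, adjusted p = 0.28). The nearest arrays of the groups were 1.12-fold apart, further than the replicates of either group.

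The 3 RPS7 genes had log2 changes from 0.018 to 0.15. RPS7 is required for the processing of the small subunit's RNA in yeast. AT5G16130 had signals of 5054.9 and 4966.9 on the wild type arrays and 5437.7 and 5689.6 on the overexpressor arrays (log2 change of 0.15 ± 0.09), without overlap. Its paralogue AT1G48830 had 4317.1 and 4182.1 against 4471.4 and 4559.5 (0.087 ± 0.086 on the same scale). The third RPS7 gene, AT3G02560, had 7435.4 and 6365.1 against 6935.1 and 6994.4, with the overexpressor signals between those of wild type.

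The head of the subunit holds RPS10, RPS12, RPS15, RPS16 and RPS19, beside RPS3. RPS12, a protein of the beak of the head, had the one gene with both overexpressor arrays lower. AT1G15930 had signals of 7660.2 and 7340.9 on the wild type arrays and 6761.5 and 6897.7 on the overexpressor arrays, a log2 change of -0.13 ± 0.09 (limma, adjusted p = 0.48). AT2G32060, the other RPS12 gene, had 3380.3 and 2707.4 on the wild type arrays and 3200.0 and 3288.4 on the overexpressor arrays, which lay between them (log2 change of 0.099 ± 0.11). RPS10, which lies next to RPS12, also had unlike paralogues. AT4G25740 had 2145.6 and 1984.1 against 2346.3 and 2386.8 (log2 change of 0.19 ± 0.09), without overlap. AT5G52650 had 6526.2 and 5175.3 against 5865.6 and 5667.6 (-0.011 ± 0.11), and here the wild type arrays bracketed the overexpressor arrays.

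RPS15 and RPS16 reach toward the transfer RNA sites, and the groups overlapped in the tested gene of each. AT5G09510 (RPS15) had 1180.2 and 1669.2 on the wild type arrays and 1489.0 and 1500.3 on the overexpressor arrays (log2 change of 0.087 ± 0.14). AT3G04230 (RPS16) had 599.5 and 622.9 on the wild type arrays and 688.6 and 488.0 on the overexpressor arrays (log2 change of -0.069 ± 0.15). These 2 genes had the widest replicate differences of all tested members, in wild type for AT5G09510 and on the overexpressor arrays for AT3G04230.

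RPS19, which is needed for the maturation of the head and is the gene most often mutated in the human disorder Diamond-Blackfan anaemia, had 3 tested genes. AT5G15520 had 839.9 and 823.3 on the wild type arrays and 942.7 and 912.1 on the overexpressor arrays (log2 change of 0.15 ± 0.10). AT5G61170 had 4790.2 and 4416.1 against 4885.4 and 5099.3 (log2 change of 0.12 ± 0.09), and AT3G02080 had 8021.1 and 7782.5 against 8053.9 and 8100.9 (0.032 ± 0.085). The groups did not overlap in any of the 3, although in AT3G02080 the nearest arrays were only 1.004-fold apart. Over all tested probe sets 26.1% separated in this direction.

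Set side by side, the 19 tested genes of body proteins all had a log2 change above 0, with a median of 0.16. In 17 of them both overexpressor arrays lay above wild type. The platform proteins RPS3a and RPS14 were counted with the body, and the assignment to regions is from general knowledge. Of the 11 genes of head proteins, 8 were above 0, with a median of 0.087. Both overexpressor arrays lay above wild type in 5 of them and below it in 1. Over all tested probe sets 53.2% were above 0, and both overexpressor arrays lay above wild type in 26.1% and below it in 22.0%. The difference between head and body was not tested. The members were also split at a mean signal of 1000, a split chosen after seeing the data. The 6 with a mean signal under 1000 had a median of 0.22, with 5 above 0, and the 24 with at least 1000 had 0.14. No share was taken over all tested probe sets under 1000, so the dimmer members have no like comparison. Among those 24, 22 were above 0, against 48.5% of all tested probe sets at least that bright, and 17 had both overexpressor arrays above wild type, against 27.0% of those probe sets, whose median was -0.0062.

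**Figure D3:**
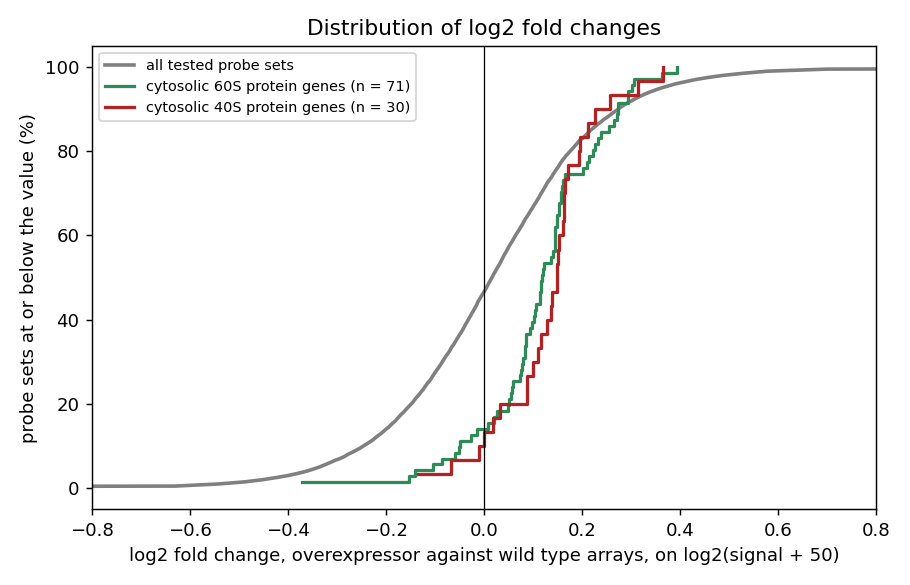
The curves give the percentage of probe sets at or below each log2 change (overexpressor against wild type arrays) for all tested probe sets, the 71 tested 60S protein genes and the 30 tested 40S protein genes. Both ribosomal curves lie to the right of the curve of all probe sets up to a log2 change of about 0.2 and are steeper, with medians of 0.15 for 40S and 0.12 for 60S.

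The signals of paralogues differed widely, for example 9847.5 for AT2G41840 and 871.1 for AT3G57490 of the RPS2 family on the same overexpressor array. Signals of different probe sets depend on their probes as well as on the transcript, so no order of abundance among paralogues was drawn. The ratio of paralogues within an array can be followed from array to array, and 18 pairs of tested paralogues were compared in 10 families. Each pair is given with the paralogue of the higher log2 change first, which fixes the sign of the difference. In 9 of the 18 pairs the ratios of the groups did not overlap, where 48.1% of single tested probe sets had groups that did not overlap in either direction. Pairs that share a gene are not independent, and the differences of the ratios were not tested.

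The ratio differed most between the groups within RPS12, RPS2 and RPS10. The signal of AT2G32060 was 0.441 and 0.369 of that of AT1G15930 in wild type, and 0.473 and 0.477 of it on the overexpressor arrays, a difference of 0.23 in log2(signal + 50). That difference was smaller than the difference between the wild type arrays, 0.25. In the RPS2 pair, AT3G57490 had 0.0672 and 0.0815 of the signal of AT2G41840 in wild type, and 0.0885 and 0.0863 on the overexpressor arrays (difference 0.21). In the RPS10 pair, AT4G25740 had 0.329 and 0.383 of the signal of AT5G52650, and 0.400 and 0.421 on the overexpressor arrays (difference 0.20). In these pairs too the wild type arrays differed by 0.25 and 0.22, more than the groups.

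Within RPS4, RPS7 and RPS19 the differences were smaller, and in the RPS4 and RPS19 pairs named here they exceeded those between replicates. AT5G07090 had 0.962 and 1.01 of the signal of its RPS4 paralogue AT5G58420 in wild type and 1.10 and 1.09 on the overexpressor arrays, a difference of 0.15 against replicate differences of 0.064 and 0.0078. AT5G15520 had 0.105 and 0.106 of the signal of its RPS19 paralogue AT3G02080 in wild type and 0.117 and 0.113 on the overexpressor arrays, a difference of 0.12 against replicate differences of 0.016 and 0.054. For RPS7, the ratio of AT5G16130 to AT3G02560 was 0.680 and 0.780 on the wild type arrays and 0.784 and 0.813 on the overexpressor arrays (difference 0.13). The RPS3a and RPS14 pairs differed between the groups by 0.0021 to 0.029, and in all 4 of them the groups overlapped.

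**Figure D4:**
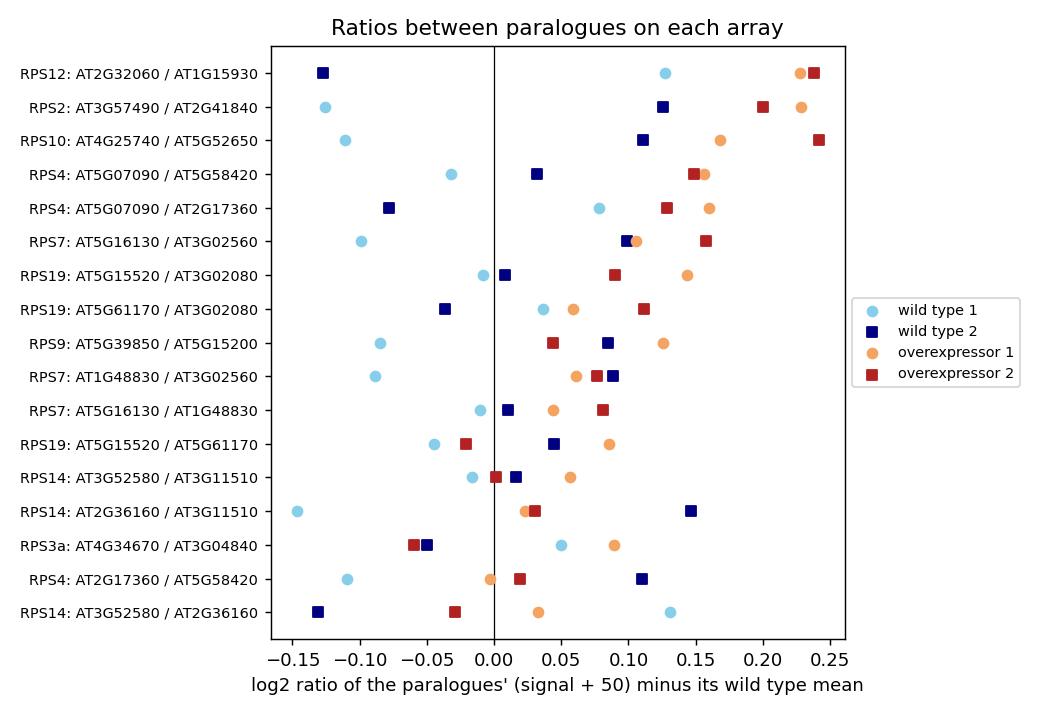
Each row is 1 of 17 pairs of tested paralogues, and the points give the log2 ratio of their (signal + 50) on each of the 4 arrays minus the mean of the 2 wild type arrays. Pairs are sorted by the difference between groups, from 0.23 in RPS12 to 0.0021 in RPS14, and in several pairs near the top the wild type arrays lie as far apart as the groups.

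Other genes of translation gave a similar picture for ribosomal proteins, which were read on the same arrays and cannot be taken as independent of the members. Of 34 further 40S loci, from RPS20 to RPS30 and the scaffold protein RACK1, 12 were tested. All 12 had a log2 change above 0 (53.2% of all tested probe sets), with a median of 0.17. In 10 both overexpressor arrays lay above wild type, against 26.1% of all tested probe sets. None passed (limma, 0 higher and 0 lower, 1.29% of all), and 3 had an unadjusted p under 0.05 (16.5% of all). The smallest p belonged to AT5G47930, of the RPS27 family, with 6079.9 and 5196.7 on the wild type arrays and 7208.5 and 6843.3 on the overexpressor arrays (log2 change of 0.32 ± 0.10, adjusted p = 0.14). AT1G23410, which encodes ubiquitin fused to RPS27a, and AT4G34555, of the RPS25 family, had 0.39 ± 0.15 and 0.33 ± 0.14.

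Of 123 loci of the large (60S) subunit, 71 were tested, and their median was 0.12. The log2 change was above 0 in 61 of them, against 53.2% of all tested probe sets. Both overexpressor arrays lay above wild type in 41 and below it in 2, against 26.1% and 22.0% of all. In limma's test 0 passed in either direction (1.29% of all), and 16 had an unadjusted p under 0.05 in either direction (16.5% of all). AT5G22440, of the RPL10a family, had the smallest p, with 2125.6 and 2204.9 on the wild type arrays and 2796.4 and 2802.0 on the overexpressor arrays (log2 change of 0.36 ± 0.09, adjusted p = 0.076). The next, AT5G23900 of the RPL13 family, was lower, with 4801.3 and 4233.8 on the wild type arrays and 3223.5 and 3738.6 on the overexpressor arrays (-0.37 ± 0.10, adjusted p = 0.11). The third in order of p, AT2G37600 of the RPL36 family, had 0.39 ± 0.11. Between the wild type arrays the median log2 difference of the 60S genes was -0.070 (replicate 2 minus replicate 1), against 0.091 to 0.15 in the 4 pairings across groups.

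Of 39 loci of translation factors and ribosome assembly, 6 were tested, too few to describe these groups. Their median was 0.10, and 4 were above 0 (53.2% of all tested probe sets). In 1 both overexpressor arrays lay above wild type, against 26.1% of all. In limma's test 0 passed (1.29% of all) and 0 had an unadjusted p under 0.05 (16.5% of all). AT1G72730, of the eIF4A helicase family, had 0.27 ± 0.14, AT5G12110, of the elongation factor eEF1B, had 0.27 ± 0.18, and AT3G05060, of the NOP58 family of nucleolar proteins, had 0.16 ± 0.14.

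Markers of tissues were few. For dividing cells 0 of 14 loci had a probe set, so their part in the result was not tested. For green tissue 4 of 13 were tested, with a summed signal of 52810 and 55983 on the wild type arrays and 51460 and 55988 on the overexpressor arrays, and for roots 4 of 9, with 11883 and 12699 on the wild type arrays and 12923 and 13563 on the overexpressor arrays. None of these 8 passed in limma's test, where 1.29% of all tested probe sets did, and none was at 0 on any array. Log2 changes of the carbon fixation gene RCA and the light-harvesting genes LHCB4.2 and LHCB4.1 were -0.060, -0.035 and 0.012, and LHCB4.3 had 0.47 ± 0.10 (adjusted p = 0.060). The root genes EXPA18, PYK10, EXPA7 and AT4G25250 had -0.37, 0.11, 0.11 and 0.26. Most of the summed root signal came from PYK10, which was higher on both overexpressor arrays, whereas EXPA18 was lower on both. Over the 4 root genes the median deviation from a gene's mean was highest on wild type replicate 2, at 0.14, against 0.070 and 0.030 on the overexpressor arrays. The part of root tissue in the result was not tested.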

How the data were processed

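The authors deposited 1 intensity per probe set and array, on a linear scale. These are MAS5 signals, per the submitters' processing notes, scaled globally to a target signal of 500, per the labels. The version of MAS5 is not given in the sources used here, and detection calls were not used. Genes come from the platform annotation, matched by symbol or gene ID to the gene table of TAIR10.1. A single gene was named by 13513 of the 22810 probe sets, and 13484 of these matched the table. No coordinates are given, because the annotation names no build. For each gene the brightest probe set was used.

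The 13961 probe sets whose signals averaged at least 100, without the 64 controls, were tested on log2(signal + 50) with limma 3.58.1 in R 4.3.3 (group term, eBayes with intensity trend, two-sided, Benjamini-Hochberg over all tested probe sets, threshold 0.05). Simulated data drawn from the fitted model served as a check, in which 47.9% of 1.5-fold and 91.3% of 2-fold changes were called. Smaller changes, such as the 1.11-fold median of the members, were not simulated, and how well the model fits was not tested. Permuting 2 against 2 arrays exactly gives at best p = 0.333, so no such test was run. Lists are described by counts and medians, without a list test. Leaving aside members not reported here one by one, which are counted in the totals but neither named nor drawn singly, the text names the 8 highest and 8 lowest members, the paralogues of the 6 families that differed most, the brightest and dimmest members and up to 3 genes of each other list, with all tested tissue markers; other members are given to complete their families. The members, families and lists were chosen with earlier results of these data known. Alternatives were other pseudocounts (1, 16, 100), minimums (none, 250, 1000), scalings, variance priors, probe set choices, the replicate number as a block and each array left out.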

Additional observations from a re-analysis of the deposited data

How the results depend on the processing

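The median of the 40S genes stayed above 0 under every alternative run, and stayed within 0.021 (SD between replicates) of 0.15 except where given here. Centring each array on its median gave 0.10, with all tested probe sets at -0.031, so that the distance of 0.13 between the medians was kept. Under that centring 15 members had both overexpressor arrays above wild type (18.6% of all tested probe sets) and 2 had both below, and the 60S median was 0.071 and that of translation factors 0.055. With each array left out in turn the 40S median ranged from 0.12 to 0.16, the 60S median up to 0.15 and the translation factor median from 0.040 to 0.13. All overexpressor signals then lay above wild type in 22 to 25 members and below it in 1 to 4. A lone array in a group makes such separation more frequent. Over all tested probe sets 38.1% to 42.2% then separated higher, against 26.1% with all 4 arrays. The 6 members with a mean signal under 1000, a split chosen after seeing the data, had a median of 0.22. Minimums of 250 and 1000 gave translation factor medians of 0.014 and 0.00016.

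The number called over all probe sets was 180, and it was 9 with a constant variance prior, 1 with no filter, 383 with centring and 1075 with the replicate number as a block. Of the members, 2 passed with that replicate block, AT3G57490 (adjusted p = 0.042) and AT5G07090 (adjusted p = 0.019). The numbers were not treated as pairs: deviations of same-numbered arrays correlated at 0.056, and no label links them. Leaving out wild type replicate 1 or 2 moved the log2 change of 13 and 14 of the 30 members by over 1.5 times, and leaving out either overexpressor array that of 4. In these fits the lone array of a group is assumed to vary like the other pair. The sign of some members turned, among them AT2G17360, reported at 0.17. With centring AT5G35530, AT3G02560 and AT3G02080 had -0.046, -0.029 and -0.015. With each array left out in turn, AT2G17360 ranged from -0.018 to 0.36, AT5G52650 from -0.18 to 0.15, AT2G32060 from -0.059 to 0.26, AT5G09510 from -0.15 to 0.33 and AT3G04230 from -0.30 to 0.16. Without wild type replicate 1 AT5G35530, AT2G17360, AT5G52650 and AT5G09510 had -0.018, -0.018, 0.15 and -0.15. Without wild type replicate 2 AT3G02560 and AT2G32060 had -0.094 and -0.059. Without overexpressor replicate 2 AT5G35530, AT5G52650 and AT3G04230 had -0.016, 0.013 and 0.16. The cause was not tested.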
